A study of Mus musculus with 4 samples.

Results

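The cell junction and adhesion genes described here are 29 genes of the 1133 that carry a single symbol in the authors' fold change list for the mouse nail matrix. They were chosen by the gene ontology terms of that list, the component term 'cell junction' (15 genes), the process term 'cell adhesion' (9 genes) or both (5 genes), and each is read from 1 probe set, the brightest by mean log2 over the 4 arrays among those listed for it. Another 7 genes with these terms, Itga4, Itga8, Itgav, Itgb4, Neo1, Pnn and Cyr61, were left out by name or because they also carry receptor, ubiquitin or RNA processing terms. The list itself was selected on the fold between the regions: a probe set entered it at a fold of at least 1.99 on these same 4 arrays. Every difference between the regions given below is therefore a description of genes picked for differing, and the counts of a fit over all probe sets, given once, support nothing about them.

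The matrix is the growing epithelium at the nail root, and the study set its distal part, nearer the nail bed, against its proximal part under the nail fold. Both were microdissected from intact matrix of 8-week-old mice, with 2 arrays for each region and no other agent or genotype named in the labels. The labels used here name no strain and do not say whether the 2 arrays of a region came from separate animals or from pools, so a spread between them may be technical. Array values are probe set intensities (the brightness of a group of short oligonucleotides that reads a transcript) on a linear scale set by the authors.

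Epithelial cells hold together through several kinds of contact. Desmosomes and adherens junctions join cadherins on neighbouring cells to keratin and actin filaments, tight junctions seal the space between cells and carry the scaffolds that set apical and basal sides, gap junctions pass small molecules, and focal adhesions and laminins tie cells to the matrix beneath. In skin these contacts are remade as keratinocytes leave the basal layer and harden.

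Of the 29 genes, 23 had higher intensities in the proximal and 6 in the distal matrix. The median log2 difference, distal minus proximal, was -1.04, or -0.90 when the 8 genes that were not above background in their lower region were put at their bounds. Among all 1133 listed genes 774 (68.3%) were higher in the proximal matrix with a median of -0.94, and among all 45037 probe sets 52.0% were, with a median of -0.055. In bulk tissue, fewer cells of a type and less RNA per cell cannot be told apart. The 23 proximal genes included all 6 of the adherens junction and actin group, though only 3 of the 6 separated the regions. Lpp and Fert2 of that group changed direction without distal replicate 2. Also among the 23 were the 1 desmosomal gene, the 1 gap junction gene and both matrix genes. Of the 5 genes of cell surface adhesion molecules 3 were higher in the distal matrix. Pcdh8, 1 of these 3, overlapped between the regions and changed direction without distal replicate 1. Of the others, 2 separated with the distal and 2 with the proximal arrays on top.

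The intensities did not overlap between the regions for 23 of the 29 genes, 19 with the proximal and 4 with the distal arrays on top. Such separation was seen for 34.7% of all probe sets (18.3% proximal, 16.4% distal) and, since the list was chosen by fold, for 73.1% of the listed genes. A limma fit over all probe sets called 0 of the 29 at a Benjamini-Hochberg adjusted p under 0.05, where it called 0.0666% of all probe sets. At an unadjusted p under 0.05 it had 12 of the 29, against 5.09% of all probe sets, and because the members were picked on this contrast nothing is read from these counts. A fit without distal replicate 1, which leaves 1 distal array, called 6 of them (Cd164, Ctnnd1, Lpp, Magi3, Mpdz and Rps6kb1), where it called 2.00% of all probe sets. The fit without distal replicate 2 called 2 (Alcam and Cd164) and 1.41% of all probe sets. Without proximal replicate 1 or 2 it called 0 of the 29, with 0.00888% and 0.0155% of all probe sets. The lone array of a region is assumed in these fits to vary like the pair of the other.

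**Figure D1:**
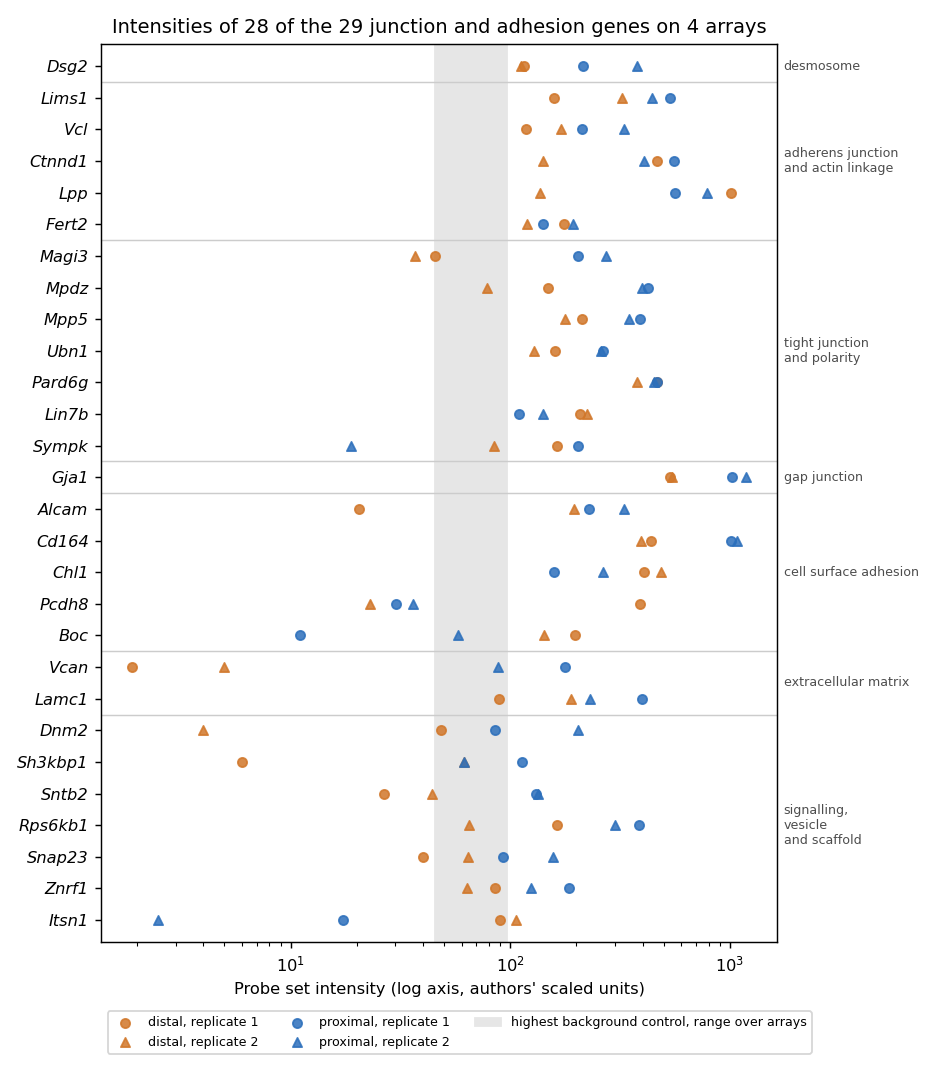
Intensity of 28 of the 29 genes on the 4 arrays, on a log axis, grouped by role; orange marks distal and blue proximal arrays, and the grey band spans the background level of the arrays, from 45.4 to 96.8. For 18 of these genes both blue marks lie to the right of both orange ones, and Vcan and Itsn1 have the lowest marks.

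Background on an array was set at its brightest Bacillus subtilis control out of 27, which stood at 58.0 and 81.0 on distal replicates 1 and 2 and 96.8 and 45.4 on proximal replicates 1 and 2. On the 4 arrays in that order 22, 18, 24 and 26 of the 29 genes lay above it, and 14 did so on all 4. The lowest of a gene's 4 values fell on distal replicate 2 for 15 genes and on distal replicate 1 for 9. The median intensity of the 29 was 157.7 and 118.9 on the distal arrays against 205.4 and 263.3 on the proximal arrays.

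Marker genes of the labelled tissue and of other cell types were looked up, of which only listed ones with a single symbol can be named. Because the list holds only genes that differ between the regions, this cannot check the label of the tissue. Of 9 keratinocyte markers 3 were listed, all bright, and they went in both directions. Krt42 had 8877.3 and 12309.8 on the distal against 731.1 and 1414.8 on the proximal arrays, a 10.3-fold difference (limma adjusted p = 8.02e-08). Krt1 was 2.36-fold higher on the distal side, at 5942.2 and 5742.2 against 2495.0 and 2458.7 (limma adjusted p = 0.0429). Krt15, a keratin gene of basal cells, was 3.14-fold higher in the proximal matrix, with 612.1 and 906.5 against 2306.1 and 2371.5 (limma adjusted p = 0.0430). The part of such a difference between keratinocytes in the values of the 29 genes was not tested. Of the markers of dermal fibroblasts 1 of 6 was listed, Dcn, a matrix proteoglycan gene, with 242.6 and 309.7 on the distal arrays against 984.1 and 1049.1 on the proximal arrays (limma adjusted p = 0.125). No marker of endothelial, immune, pigment, nerve, muscle, bone, blood or Merkel cells was among the listed genes with a single symbol, so none could be read here.

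Promoter windows are shown for Cd164 and Gja1, the 2 members with the highest mean log2 intensity, for Magi3, whose bound on the regional fold was the largest of the 8, and for Chl1, the brightest member that was higher in the distal matrix. Each runs 5′ to 3′ from 250 bases before to 50 bases after the gene's start, is taken from RefSeq (build GRCm38.p6), and has matches to 6 motifs in capitals. The windows lie at chr10:41519250-41519549 on the plus strand for Cd164, chr3:104220357-104220656 on the minus strand for Magi3, chr10:56377050-56377349 on the plus strand for Gja1 and chr6:103510626-103510925 on the plus strand for Chl1.
Cd164: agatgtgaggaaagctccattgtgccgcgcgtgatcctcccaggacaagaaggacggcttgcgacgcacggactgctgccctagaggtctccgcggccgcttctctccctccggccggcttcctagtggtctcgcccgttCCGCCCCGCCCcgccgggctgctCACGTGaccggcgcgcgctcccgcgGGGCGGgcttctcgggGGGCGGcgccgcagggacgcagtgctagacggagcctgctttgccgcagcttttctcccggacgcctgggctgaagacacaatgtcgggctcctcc
Magi3: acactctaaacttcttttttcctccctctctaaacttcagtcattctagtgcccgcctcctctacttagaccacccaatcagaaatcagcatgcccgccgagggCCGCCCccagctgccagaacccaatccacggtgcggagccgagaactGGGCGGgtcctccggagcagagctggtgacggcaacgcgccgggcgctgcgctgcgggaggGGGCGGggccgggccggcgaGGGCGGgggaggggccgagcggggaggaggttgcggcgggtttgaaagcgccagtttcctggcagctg
Gja1: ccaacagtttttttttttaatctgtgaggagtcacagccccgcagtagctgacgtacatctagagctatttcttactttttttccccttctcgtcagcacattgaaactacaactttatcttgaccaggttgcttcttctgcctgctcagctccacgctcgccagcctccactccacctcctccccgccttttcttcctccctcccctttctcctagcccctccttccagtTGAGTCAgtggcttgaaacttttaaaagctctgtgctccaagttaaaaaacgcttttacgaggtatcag
Chl1: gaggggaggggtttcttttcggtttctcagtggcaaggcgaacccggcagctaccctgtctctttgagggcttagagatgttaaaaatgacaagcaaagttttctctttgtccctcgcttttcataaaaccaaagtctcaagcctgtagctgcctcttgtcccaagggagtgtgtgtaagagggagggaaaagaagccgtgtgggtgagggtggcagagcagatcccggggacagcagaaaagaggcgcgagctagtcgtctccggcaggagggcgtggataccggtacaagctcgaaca

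The motifs were the GC box (GGGCGG), the AP-1 site (TGANTCA), the TEAD site (GGAATG), the TCF/LEF site (CTTTGAT), an E-box (CACGTG) and the TATA box (TATAAA), each searched on both strands. The Cd164 window holds 4 GC boxes, 2 of them overlapping by 1 letter, and an E-box that begins 87 bases before the start. The Magi3 window holds 4 GC boxes, the nearest beginning 18 bases before the start. The Gja1 window holds an AP-1 match 19 bases before the start and no GC box, and that of Chl1 holds none of the 6. These letters are a description of the windows and say nothing of which factor binds them.

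Of the 29 genes 21 had a promoter entry, with 31 windows in all; Boc, Dsg2, Lamc1, Mpdz, Mpp5, Pard6g and Sntb2 are among the 8 with none. A GC box was in 51.6% of those windows, in 35.7% of all 32851 windows and in 46.2% of the 21263 windows of protein-coding genes. The E-box was in 12.9% of them, against 7.15% of all and 7.84% of coding windows. The AP-1 letters (6.45% against 7.81% of all), the TEAD letters (9.68% against 14.7%) and the TATA letters (12.9% against 13.6%) were in similar or lower shares. The TCF/LEF letters were in 0 of the 31, where 3.73% of all windows hold them.

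Dsg2 (Entrez gene 13511) was the only desmosomal cadherin among the listed genes with a single symbol. Its protein, desmoglein 2, spans the membrane and joins the desmosomes of neighbouring cells. Its intensities were 115.9 and 111.6 on the distal arrays against 215.3 and 376.4 on the proximal ones. The distal arrays were alike and both lay below the proximal arrays, which differed 1.75-fold from each other. The log2 difference was -1.32 ± 0.66 (SE, n = 2 arrays per region), a 2.50-fold higher level in the proximal matrix.

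The genes around the adherens junction and its actin linkage all had higher proximal intensities, and 3 of the 6 separated the regions. Lims1, which encodes the adaptor PINCH1 that links integrins to actin through integrin-linked kinase, had 157.7 and 321.9 against 534.3 and 440.6. The groups were apart, with a difference of -1.11 ± 0.53 (SE, n = 2) that was -0.59 without distal replicate 1. Vcl encodes vinculin, the actin-binding protein of adherens junctions and focal adhesions, and had 117.8 and 169.9 against 212.4 and 328.7. All 4 Vcl values were above background and the groups were apart, with a difference of -0.90 ± 0.64 (SE, n = 2), or -0.59 without proximal replicate 2.

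In the other 3 genes of this group the regions overlapped. Ctnnd1 encodes p120 catenin, which binds the inner end of cadherins and keeps them at the surface, and had 466.9 and 140.2 on the distal arrays against 555.5 and 407.0 on the proximal ones. The 466.9 lay between the proximal values and the 140.2 far below them. Its difference of -0.89 ± 0.55 (SE, n = 2) was -0.026 without distal replicate 2. Lpp, a LIM domain gene whose protein sits at focal adhesions and cell contacts, had its highest value (1008.5) and its lowest (136.0) both on distal arrays, with 564.2 and 787.6 between them. The difference of Lpp was therefore -0.85 ± 0.59 (SE, n = 2) with all arrays and turned to 0.60 without distal replicate 2. Fert2 (now Fer), a tyrosine kinase gene whose product acts on catenins, had overlapping values between 118.9 and 192.6 and a difference of -0.19 ± 0.71 (SE, n = 2), or 0.090 without distal replicate 2. The probe sets of Ctnnd1 and Lpp carry a suffix that Affymetrix gives to sets shared by more than 1 transcript, so other transcripts can add to them.

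The group of tight junction and polarity genes, 7 in all, had 5 with higher proximal and 2 with higher distal intensities. Mpdz (Entrez gene 17475) encodes MUPP1, a scaffold of many PDZ domains that binds claudins, and its intensities were 148.9 and 78.2 on the distal against 423.7 and 399.0 on the proximal arrays. The proximal values lay close together and well above both distal values. The log2 difference was -1.93 ± 0.62 (SE, n = 2), or 3.81-fold, with the 78.2 just below the background of its array. Magi3 (Entrez gene 99470), a gene of the membrane-associated guanylate kinase scaffolds whose promoter is shown above, had 45.3 and 37.0 against 204.0 and 273.9. Neither distal value was above background, so the fold of the intensities is written as a bound, 3.45-fold higher in the proximal matrix. The measured difference was -2.53 ± 0.87 (SE, n = 2). The authors' deposited table has 2.79-fold, below this bound, which does not allow for the spread between arrays.

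Mpp5 encodes PALS1, which ties the Crumbs complex to tight junctions, and had 210.9 and 178.1 against 387.4 and 347.9, a difference of -0.92 ± 0.55 (SE, n = 2). Ubn1, the gene of ubinuclein, a nuclear protein also found at tight junctions, had 160.2 and 128.0 against 263.4 and 257.5, a difference of -0.86 ± 0.64 (SE, n = 2). In both genes the 2 arrays of a region differed by at most 1.25-fold and the regions did not overlap. Pard6g, which encodes a PAR6 polarity protein, had nearly equal values, 464.0 and 377.7 against 466.2 and 449.8, and overlapped between regions. Its difference of -0.13 ± 0.46 (SE, n = 2) was 0.019 without distal replicate 2.

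The 2 genes of this group with higher distal intensities were Lin7b and Sympk. Lin7b, whose PDZ protein forms a complex with PALS1, had 208.5 and 223.7 on the distal arrays against 109.8 and 141.3 on the proximal arrays, a difference of 0.79 ± 0.68 (SE, n = 2) with no overlap. It was 0.28 with the arrays scaled to their hybridization controls, which lowers every difference by 0.51. Sympk encodes symplekin, found both at tight junctions and in the machinery that forms mRNA 3′ ends. Its proximal arrays gave both its highest value, 204.2, and its lowest, 18.9, with 163.4 and 84.6 on the distal arrays. The difference of 0.92 ± 1.05 (SE, n = 2) turned to -0.80 without proximal replicate 2, whose 18.9 was below background.

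Gja1 (Entrez gene 14609) encodes connexin 43, the gap junction protein of the basal and spinous epidermis. It was the only connexin gene among the listed genes with a single symbol. It had the highest mean level of the 29 genes, with 531.7 and 541.7 on the distal arrays against 1023.3 and 1183.3 on the proximal ones. The 2 arrays of each region differed by 1.02-fold and 1.16-fold, far less than the regions. The log2 difference was -1.04 ± 0.38 (SE, n = 2), or 2.05-fold, and stayed between -1.14 and -0.93 when any 1 array was left out.

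Among genes of cell surface adhesion molecules the directions were mixed. Cd164 (Entrez gene 53599), which encodes the sialomucin endolyn, had 439.1 and 394.2 on the distal arrays against 1014.1 and 1081.1 on the proximal arrays. The arrays of a region differed by at most 1.11-fold and the regions did not overlap. The log2 difference was -1.33 ± 0.40 (SE, n = 2), or 2.52-fold, and ranged from -1.41 to -1.25 when any 1 array was left out. Alcam (Entrez gene 11658), an immunoglobulin-type adhesion molecule gene, had 20.5 and 194.1 against 229.1 and 328.3. Its groups were apart, but the difference of -2.12 ± 0.87 (SE, n = 2) rested on distal replicate 1, whose 20.5 was below background, and was -0.50 without it. The second listed probe set of Alcam, 81.3 and 103.9 against 180.6 and 150.7, gave -0.84.

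Boc (Entrez gene 117606), the gene of a surface protein that binds hedgehog ligands, was one of the members on the distal side. Its intensities were 196.1 and 142.7 on the distal arrays against 11 and 57.7 on the proximal arrays, all apart. The difference was 2.73 ± 1.12 (SE, n = 2), or 6.64-fold. The 11 of proximal replicate 1 was below background, and without that array the difference was 1.54. Chl1, a gene of the L1 family of neural adhesion molecules, had 405.6 and 485.5 on the distal against 158.6 and 263.3 on the proximal arrays, a difference of 1.12 ± 0.54 (SE, n = 2), or 0.61 with hybridization control scaling. Every Chl1 value was above background and the regions did not overlap. Pcdh8, a protocadherin gene, had a difference of 1.52 ± 1.29 (SE, n = 2) that rested on distal replicate 1 alone, at 389.1, with 22.9 on the other distal and 30.1 and 36.1 on the proximal arrays. None of these 3 values was above background, and the bound of 1.42-fold takes the 22.9 as measured. Without distal replicate 1 the difference was -0.53, and its probe set carries the Affymetrix suffix for probes that may bind other sequences.

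Both genes of extracellular matrix proteins had higher proximal intensities. Vcan (Entrez gene 13003), which encodes the large proteoglycan versican, had 1.9 and 5.0 on the distal arrays against 176.8 and 88.1 on the proximal arrays. The proximal arrays were above background and the distal ones far below it, so that the proximal level was at least 1.82-fold higher. The measured difference was -5.34 ± 1.88 (SE, n = 2). Lamc1, the gene of the laminin gamma 1 chain of basement membranes, had 88.9 and 189.8 against 398.0 and 229.6, a difference of -1.22 ± 0.65 (SE, n = 2) with no overlap, or -0.67 without distal replicate 1. Dcn, the fibroblast gene given above, was 3.71-fold higher in the proximal matrix (log2 difference -1.89). The part of stromal cells in the values of Vcan and Lamc1 was not tested.

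The remaining 7 genes encode signalling, vesicle and scaffold proteins, all annotated to the synapse as well as to the cell junction, and 6 of them had higher proximal intensities. Rps6kb1 (Entrez gene 72508), the gene of the S6 kinase that acts below mTOR, had 163.9 and 65.0 on the distal arrays against 385.6 and 300.3 on the proximal arrays. The regions were apart, with a difference of -1.72 ± 0.67 (SE, n = 2), or 3.30-fold, and -1.05 without distal replicate 2, whose 65.0 was below background. Its second listed probe set, 90.5 and 125.2 against 281.5 and 348.6, gave -1.56. Sntb2 (Entrez gene 20650), a gene of the syntrophin adaptors of the dystrophin complex, had 26.5 and 44.0 against 131.2 and 133.0. Neither distal value was above background, so its proximal level was at least 1.93-fold higher (measured difference -1.95 ± 1.06, SE, n = 2). Znrf1, a RING finger gene, had 85.4 and 63.6 against 184.6 and 123.8, a difference of -1.04 ± 0.84 (SE, n = 2), with the 63.6 below background.

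The other members of this group, like Sntb2, were not above background on either array of their lower region. Sh3kbp1 (Entrez gene 58194), whose adaptor protein CIN85 acts in receptor endocytosis, had 6.0 and 61.3 on the distal arrays against 112.6 and 61.5 on the proximal arrays. The regions were apart by only the 0.2 units between the arrays numbered 2, and the bound was 1.21-fold. Its measured difference of -2.12 ± 1.47 (SE, n = 2) was -0.44 without distal replicate 1. Dnm2, the gene of the membrane-cutting GTPase dynamin 2, and Snap23, a gene of the membrane fusion machinery, were above background on 1 of the 2 proximal arrays and on no distal array. The bounds on their proximal levels, 1.92-fold and 1.75-fold, take the values of proximal replicate 1 (85.3 and 92.2) as measured, although both were below that array's background. The measured differences were -3.24 ± 1.44 and -1.24 ± 0.99 (SE, n = 2), the first -1.44 without distal replicate 2. Itsn1 (Entrez gene 16443), which encodes the endocytic scaffold intersectin 1, was the only gene of this group on the distal side, with 90.0 and 106.2 against 17.3 and 2.5. Its proximal values were not above background, so the distal level was at least 1.47-fold higher (measured difference 3.89 ± 1.76, SE, n = 2, and 2.50 without proximal replicate 2).

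**Figure D2:**
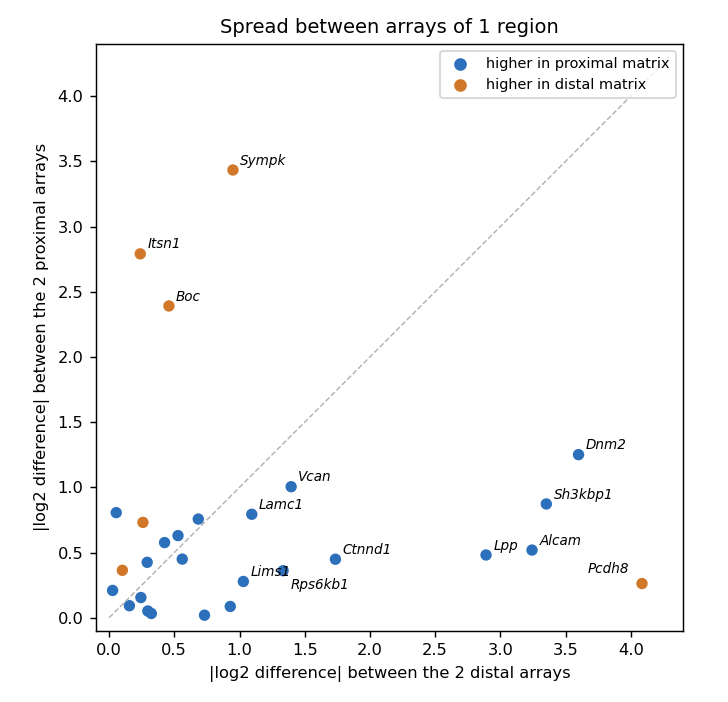
Absolute log2 difference between the 2 distal arrays (horizontal) and between the 2 proximal arrays (vertical) for 28 of the 29 genes, coloured by the region with the higher mean; the dashed line marks equal spread. Genes past 1 on either axis are named, and 17 of the 28 lie below the line; of the named genes, Ctnnd1, Lamc1, Lims1 and Lpp had all values above background.

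The spread between the 2 arrays of 1 region differed widely among the genes. How the authors computed the fold that chose the genes is not described. Because 1 outlying array can raise a fold, these spreads may depend on that choice. The median absolute log2 difference was 0.68 between the distal and 0.45 between the proximal arrays, against 1.04 and 0.57 over all listed genes and 1.20 and 1.0 over all probe sets. The median level was 164 for the 29 genes, 168 for all listed genes and 31.2 for all probe sets. The spreads over all probe sets are therefore not compared at equal brightness. The distal arrays were farther apart than the proximal ones for 18 of the 29 genes, and for 55.2% of all probe sets. They differed by more than 1 on the log2 scale in 10 genes, of which 4 had both distal values above background: Lpp (7.42-fold), Ctnnd1 (3.33-fold), Lamc1 (2.13-fold) and Lims1 (2.04-fold). In the other 6, Alcam, Dnm2, Pcdh8, Rps6kb1, Sh3kbp1 and Vcan, at least 1 distal value was not above background, and the spread has no firm size. The proximal arrays differed by as much in 5 genes, but only Vcan (2.01-fold) had both values above background, and Boc, Dnm2, Itsn1 and Sympk did not. In 9 of the 29 genes the larger of these spreads exceeded the difference between the regions. All values were above background in 4 of them, Ctnnd1, Fert2, Lpp and Pard6g, and not in the other 5, Alcam, Dnm2, Pcdh8, Sh3kbp1 and Sympk.

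**Figure D3:**
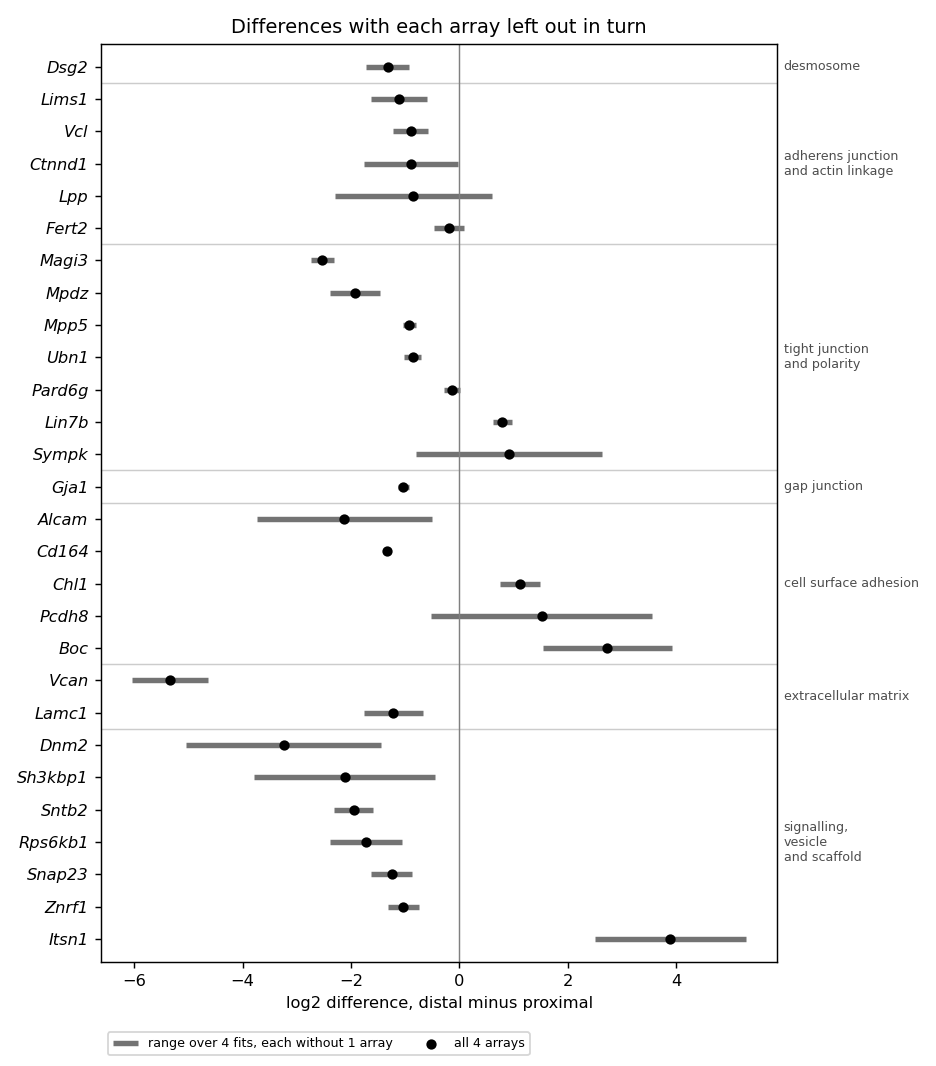
Log2 difference, distal minus proximal, of each of 28 genes with all 4 arrays (points) and its range over 4 fits that each leave out 1 array (bars). The bars of Fert2, Lpp, Pard6g, Pcdh8 and Sympk cross 0 and those of Cd164, Gja1 and Magi3 are short.

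The direction of 24 of the 29 genes was the same whichever array was left out. The 5 others were Fert2, Lpp and Pard6g, which turned without distal replicate 2 (Fert2 also without proximal replicate 2), Pcdh8, which turned without distal replicate 1, and Sympk, which turned without proximal replicate 2. The number of genes higher in the proximal matrix accordingly lay between 20 and 24. For the 23 genes whose regions did not overlap, leaving out 1 array could not turn the direction, so nothing is read from its staying the same. Ctnnd1 was the only overlapping gene that kept its direction.

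The authors' deposited table, made from the same arrays by a processing that the sources used here do not describe, gives folds from 1.99 to 3.92 for the 29 genes, with a median of 2.42. There, 24 were higher in the proximal and 5 in the distal matrix. The genes closest to its cut-off were Sympk (1.99-fold), Lin7b (2.00-fold), Itsn1 (2.00-fold) and Fert2 (2.01-fold), and probe sets just outside it carry no name. Mpdz (3.92-fold), Cd164 (3.53-fold), Boc (3.22-fold), Vcl (3.06-fold) and Vcan (3.04-fold) had the largest folds in the authors' deposited table.

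**Figure D4:**
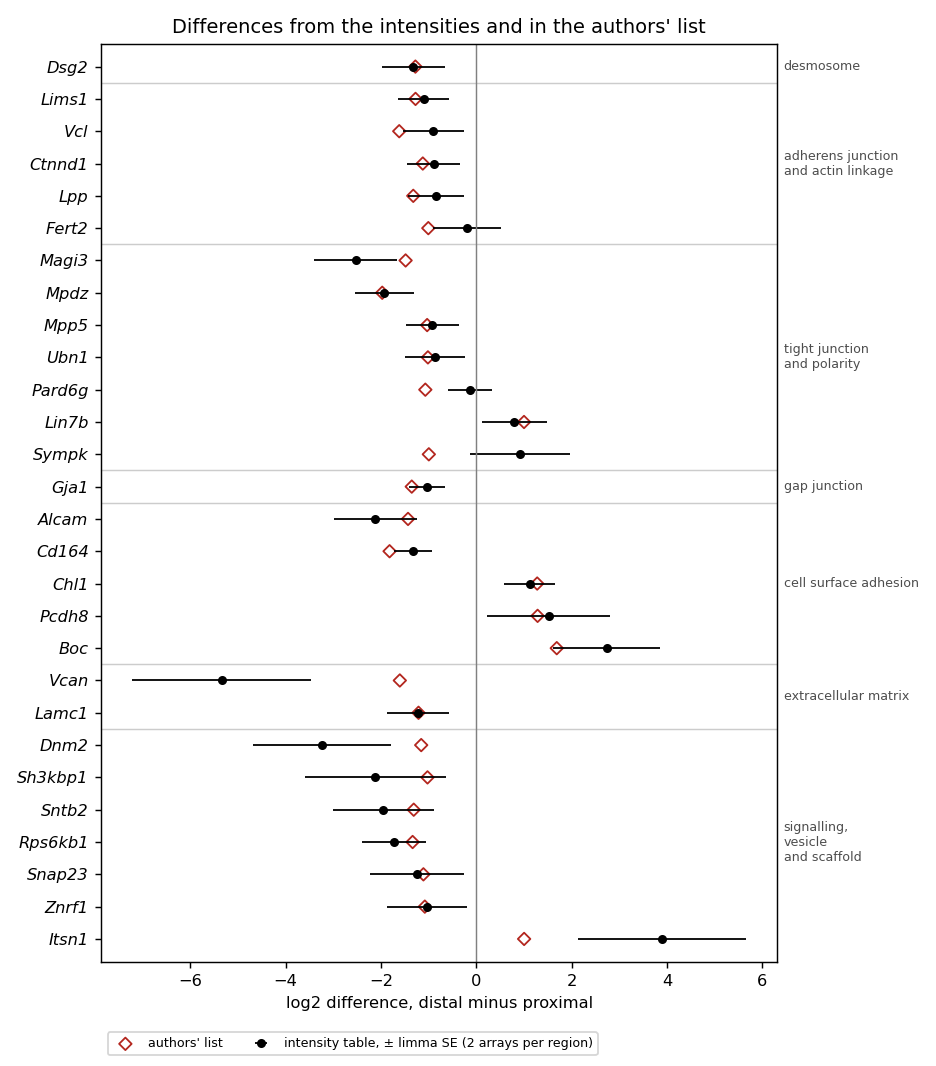
Log2 difference, distal minus proximal, of each of 28 genes from the intensity table (black, with limma's standard error, 2 arrays per region) and from the authors' list (open red diamonds). The diamonds leave a gap around 0 because the list was cut by fold; Sympk lies on opposite sides of 0, and the intensity differences of Vcan, Dnm2 and Itsn1, whose lower region was not above background, have no firm size beyond bounds of 1.82-fold, 1.92-fold and 1.47-fold.

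Direction was shared between the intensities and the authors' deposited table for 28 of the 29 genes, and for 98.6% of all listed genes. Sympk was the exception, 1.99-fold higher in the proximal matrix in the authors' deposited table and 1.89-fold higher in the distal matrix in the intensities. Across the 29 genes the log2 differences had a Pearson correlation of 0.79 and a Spearman correlation of 0.73, a description only, since both come from the same 4 arrays and genes are not replicates. For 9 genes, Ctnnd1, Fert2, Lin7b, Lpp, Mpp5, Pard6g, Sympk, Ubn1 and Vcl, the intensity difference was smaller than the cut-off of the list. Pard6g was 2.10-fold higher in the proximal matrix in the authors' deposited table but 1.09-fold in the intensities.

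Other ontology terms of the list were shared by several members, some of them together with the terms that chose the genes. All 7 listed genes annotated to the tight junction were members (Lin7b, Magi3, Mpdz, Mpp5, Pard6g, Sympk and Ubn1). The synapse was annotated for 9 of the 29 and for 10 of the 1133 listed genes, and 7 of those 9 had higher proximal intensities. Every member annotated to the tight junction or the synapse also carries the term 'cell junction' that chose it, so neither share is a result about the members. The plasma membrane was annotated for 18 of the 29 (62.1%), against 80 of all listed genes (7.06%). The members were chosen by junction and adhesion terms, which can go together with this one, so nothing is read from that share. The nucleus was annotated for 10 of the 29 (34.5%) and for 376 of all listed genes (33.2%), a similar share.

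A wider set held 243 genes of desmosomes, adherens, tight and gap junctions, focal adhesions, basement membrane, matrix, surface adhesion molecules and synaptic contacts. Of these, 22 were among the listed genes with a single symbol, 15 of them members. Of the 22, 19 had higher intensities in the proximal and 3 in the distal matrix, where 68.3% of all listed genes were higher in the proximal matrix. Limma called 0 of the 22, against 19 of the 1133 listed genes and 0.0666% of all probe sets. These genes come from the same list and 15 were counted above, so they add no separate support. The 7 that were not members included Git2 (-1.73) and Tns1 (-0.86), genes of focal adhesion proteins. Ctnnb1, the gene of beta-catenin, which binds cadherins beside p120 catenin, had overlapping values of 160.1 and 289.5 on the distal arrays against 94.5 and 372.1 on the proximal arrays. Its log2 difference was 0.20, whereas the authors' deposited table has it higher in the proximal matrix by 1.42 on the log2 scale. Classical cadherins, claudins, desmocollins and desmosomal plaque genes of the set were not among the listed genes with a single symbol and are not analysed here.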

How the data were processed

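Total RNA of the nail matrix was labelled from the 3′ end and hybridised to arrays that the file headers name as Affymetrix Mouse430_2. The deposited value table holds probe set intensity values on a linear scale; the labels and headers do not say how the authors summarised and scaled them. The authors' list gives, per the file headers, an unsigned fold between regions at a cut-off of 1.99 with distal as control, and the authors' log2 value of each region, whose centring is not stated.

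For this report, intensities under 1 were set to 1 before the log2 step. After removal of 64 control probe sets, 45037 were fitted with limma 3.58.1 (R 4.3.3; trended variance, two-sided, Benjamini-Hochberg adjustment over all of them, threshold 0.05). A gene whose lower region was at or below the highest Bacillus subtilis control on both arrays has its fold written as a bound, with the control as the lower level. Where 1 array of the higher region was also not above background (Dnm2, Pcdh8 and Snap23), its measured value was kept. Such a bound takes the mean log2 of the higher arrays as measured and does not allow for their spread. All 29 members matched a RefSeq gene by identifier, and 1 symbol has changed.

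Of the members, 28 are named and 1, which stays in the counts, is not reported here. The rule described in full the 12 with the largest differences among those that separated the regions and were above background on both higher arrays, 11 of them printed, with 4 values for the other 9 such genes and for some others, chosen after their values were seen. The members, the gene lists, the background rule and the tests were chosen with earlier results of these data known, and the 4 promoters and 6 motifs after the values were seen. Precision is limited by the number of arrays, 2 per region.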

Additional observations from a re-analysis of the deposited data

How the results depend on the processing

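Alternatives changed the count of probe sets called by limma far more than the description of the 29 genes. Against 30 calls, limma gave 9 under quantile normalization, 8 under median centring, 12 with hybridization control scaling, 17 with log2 of the intensity plus 16, 2 among the brighter probe sets and 0 without a variance trend (3010 at an unadjusted p under 0.05), and 4 to 899 with 1 array left out. The replicate number as a block gave 90. The labels do not say that equal numbers mark shared animals, and the deviations of equally numbered arrays had a correlation of -0.0072 across probe sets. None of the 29 genes was called with the block or under any setting that kept all 4 arrays.

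The number of the 29 with higher proximal intensities was 23 under each scaling and with the pseudocount, and 24 in the authors' values. It was also 23 with the block, which cannot change these differences, as both regions hold both replicate numbers. As the mean over a gene's listed probe sets it was 23, where only the 2 genes with more than 1 could move. Among the brighter probe sets, whose differences are unchanged, it was 22 of 27. The median difference of the 29 stayed between -1.15 and -1.0 under all settings except hybridization control scaling (-1.55). That scaling moved the median of all probe sets by -0.51. Without 1 array it ranged from -1.09 to -1.0; leaving out proximal replicate 2 moved the median of all probe sets by -0.13.

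Sign changed in 7 of 346 recomputed differences, many of which could not change sign. Differences with the block or among the brighter probe sets equal the main ones, as do means for genes with 1 listed probe set. Genes whose regions did not overlap could not turn with 1 array left out. The 7 of 346 is therefore no measure of how stable the directions are. With 1 array left out the ranges were -0.53 to 3.56 for Pcdh8, -0.47 to 0.090 for Fert2, -2.29 to 0.60 for Lpp, -0.28 to 0.019 for Pard6g and -0.80 to 2.64 for Sympk, and Sympk was at -0.99 in the authors' values. The causes were not tested. For 8 genes the signal over background limits the fold to a bound.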
